A study of Mus musculus with 16 samples.

Results

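The CCAAT/enhancer-binding proteins (CEBP) are encoded by a small gene family, of which 6 members were looked for here: Cebpa, Cebpb, Cebpd, Cebpe, Cebpg and Cebpz. A probe set, the group of short probes that reads 1 transcript on the array, was taken for a member where the platform annotation gave that gene's symbol and no other. This rule found 8 probe sets for 4 of the 6 genes: 1 for Cebpa, 2 for Cebpb, 2 for Cebpd and 3 for Cebpg, among 18193 named genes and 45101 probe sets of the array. Cebpe and Cebpz were not analysed here. The study chose Cebpa, Cebpb and Cebpd for its own text from these same arrays, so their direction is not independent evidence.

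CEBP proteins bind DNA as dimers through a basic region and a leucine zipper, and they recognise a palindromic motif whose arms carry the letters TTGCG. CEBPA commits progenitors to the granulocyte and monocyte lineages, and CEBPB and CEBPD are induced by interleukin-6 (IL-6) and other inflammatory signals, in macrophages, hepatocytes and other cells. CEBPE drives the last steps of granulocyte maturation, CEBPG lacks an activation domain of its own and works as a dimer partner, and CEBPZ shares the name but is no leucine zipper protein. In the B lineage, forced expression of Cebpa or Cebpb turns mouse B cells into macrophage-like cells, and IL-6 is a growth factor of human multiple myeloma (MM) cells.

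The study asked which transcripts change when spliced XBP-1 (XBP-1s), a transcription factor of the unfolded protein response, is expressed in B cells without pause, and which differ again once MM has arisen. Total RNA was hybridised to Affymetrix mouse arrays from 5 samples of nontransgenic splenic B cells, 5 of splenic B cells of Eμ-xbp-1s mice aged 20 weeks (transgenic B cells from here on) and 6 of MM tumours of Eμ-xbp-1s mice. In these C57BL/6 mice the mouse xbp-1s cDNA is driven by an immunoglobulin heavy chain promoter and the Eμ enhancer, which act throughout B cell development and in some T cells, and the construct also encodes eGFP. Splenic B cells were taken with magnetic beads against B220, a surface marker of B cells. The ages of the nontransgenic and tumour-bearing mice, the transgenic line behind each array and any sort of the MM samples are not given in the sources used here. Nothing states that each MM sample came from a different mouse, so every p-value reflects only how far these samples spread.

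Intensities were deposited on a linear scale, and their array medians were 70.8 to 73.0 in nontransgenic B cells, 69.0 to 73.5 in transgenic B cells and 69.3 to 82.9 in MM. Xbp1 itself ran from 1802 to 2452, from 2040.2 to 3108 and from 1477 to 4979 in the 3 groups. The B cell marker Ms4a1 (CD20) was at 6225 to 7905 in nontransgenic and 3397 to 5227 in transgenic B cells. In MM it was at 118, 60.3 and 238 on replicates 4, 5 and 6 against 3497 to 5531 on replicates 1 to 3. Not every B cell marker was low on replicate 6. Cd79a was at 3346 there, above every other MM sample, and at 422 and 62.8 on replicates 4 and 5. Summed mature B cell markers were 1299, 637 and 6922 on replicates 4, 5 and 6 and 12418 to 13563 on replicates 1 to 3. Summed plasma cell markers were 11042.5 to 12568.5 in nontransgenic B cells and 10089 to 14983 in transgenic B cells. In MM they were 3703 to 16048, which overlapped both B cell groups. The MM samples were thus far from alike. Summed markers of erythroid cells stood at 13918 and 19309 on MM replicates 4 and 5 and at 126 to 228 on the other 4, which sets these 2 samples apart from the rest, and the fold changes and counts of calls for MM were also computed without them.

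The promoters of Cebpa, Cebpb and Cebpg, those of the family matched in the RefSeq table used here, are shown to set 2 genes that were called higher in the first comparison beside 1 that was not. They are on GRCm38.p6, and the 250 bases before each annotated start are printed from 5′ to 3′ on the gene's strand. Capitals mark matches, on either strand, to TATAAA (the TATA box), CCAAT (the CCAAT box), TTGCG (an arm of the CEBP palindrome), TGACG (the core of a CRE, where CREB and ATF factors bind), ACGTG (the core of a site for XBP-1 and related factors) or TTCNNNGAA (a STAT site).
Cebpa: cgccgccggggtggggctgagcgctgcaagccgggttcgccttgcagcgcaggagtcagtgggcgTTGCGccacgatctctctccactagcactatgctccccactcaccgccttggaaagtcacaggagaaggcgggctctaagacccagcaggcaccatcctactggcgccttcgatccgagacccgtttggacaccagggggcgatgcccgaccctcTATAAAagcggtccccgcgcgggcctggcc
Cebpb: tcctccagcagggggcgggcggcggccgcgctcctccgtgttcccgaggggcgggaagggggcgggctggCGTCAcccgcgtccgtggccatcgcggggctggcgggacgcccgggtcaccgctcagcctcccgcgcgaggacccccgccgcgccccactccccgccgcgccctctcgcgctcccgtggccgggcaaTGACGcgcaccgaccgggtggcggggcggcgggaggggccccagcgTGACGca
Cebpg: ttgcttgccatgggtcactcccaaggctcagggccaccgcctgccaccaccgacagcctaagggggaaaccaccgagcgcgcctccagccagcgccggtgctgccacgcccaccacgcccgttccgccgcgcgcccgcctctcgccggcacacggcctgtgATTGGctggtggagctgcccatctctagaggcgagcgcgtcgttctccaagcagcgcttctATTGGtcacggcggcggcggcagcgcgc
The Cebpa window lies at chr7:35119043-35119292 (plus strand), that of Cebpb at chr2:167688665-167688914 (plus strand) and that of Cebpg at chr7:35056567-35056816 (minus strand). Cebpa and Cebpg are near neighbours on chromosome 7, with Gm45095, which overlaps the Cebpg window, as the coding gene listed between them. All 3 windows were rich in G and C (66.4%, 81.6% and 70.8%, against a median of 52.4% over 32851 promoters of the table).

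Each promoter held its own set of motifs. That of Cebpa had TATAAA at -30 to -25 from the start and TTGCG at -185 to -181. TATAAA was in 12.4% and TTGCG in 14.5% of all promoters of that length. The Cebpb window had TGACG at -53 to -49 and at -7 to -3, and once more on the opposite strand at -180 to -176, while TGACG was in 17.8% of all promoters. TATAAA lay at 22 to 27 after the annotated start of Cebpb, outside the bases printed. Cebpg had no match but the CCAAT box, on the opposite strand at -89 to -85 and -28 to -24, a motif of 33.8% of all promoters. No ACGTG or TTCNNNGAA was in these 3 windows (16.6% and 7.02% of all promoters had 1 or more). A match is a string of letters and was not tested as a binding site.

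Cebpa was read by a single probe set (1418982_at). Its intensity was 78.7, 78.1, 57.4, 80.0 and 79.2 on nontransgenic replicates 1 to 5 and 177, 173, 124, 163 and 179 on transgenic B cell replicates 1 to 5. The groups did not overlap, and replicate 3 was the lowest array of both. In MM it was 416, 586, 473, 252, 145 and 135 on replicates 1 to 6. Every MM sample thus lay above every nontransgenic array, but MM replicates 5 and 6 lay within the range of transgenic B cells. The means were 74.7 ± 9.67 (SD, n = 5), 163 ± 22.9 (SD, n = 5) and 334 ± 185 (SD, n = 6).

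Cebpb had 2 probe sets. The brighter (1418901_at) was at 96.4, 152, 144, 188 and 105 in nontransgenic and at 547, 460.5, 299, 777 and 608 in transgenic B cells. Its highest nontransgenic array was below the lowest transgenic array. In MM it was at 287, 498, 522, 1673, 1387 and 128 on replicates 1 to 6. Replicates 4 and 5 were above every other array of the series, and replicate 6 lay within the nontransgenic range. Means were 137 ± 37.2 (SD, n = 5), 538 ± 177 (SD, n = 5) and 749 ± 628 (SD, n = 6).

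The dimmer probe set of Cebpb (1427844_a_at) stayed between 24.5 and 34.8 in nontransgenic B cells, under the floor of 50 to which low values were set for the tests. In transgenic B cells it was at 154, 133, 12.98, 98.8 and 115, so that replicate 3 fell below every nontransgenic array while the other 4 stood above them all. In MM it was at 44.7, 80.2, 27.7, 585, 225 and 18.8. Replicates 4 and 5 were again the highest, as on the brighter probe set. Across the 16 arrays the log2 values of the 2 probe sets correlated at r = 0.84, with values of the dimmer one set to the floor.

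Cebpd also had 2 probe sets. The brighter one (1423233_at) was at 8.01, 15.1, 15.2, 20.7 and 17.2 in nontransgenic B cells, all below the floor. It was at 115, 97.7, 126, 177 and 139 in transgenic B cells and at 176, 239, 223, 510.3, 232 and 173 in MM. Nontransgenic arrays were below all others, and the transgenic B cells overlapped MM only through replicate 4, at 177. The other probe set (1456605_at) was at 12.4 to 18.6 in nontransgenic B cells and at 24.1, 26.2, 55.6, 87.4 and 91.5 in transgenic B cells, again with no overlap, and at 18.1, 40.5, 33.7, 126, 147 and 67.5 in MM. It did not exceed 100 on enough arrays to be tested. MM replicates 4 and 5 were its highest values, and MM replicate 1 lay within the nontransgenic range.

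Cebpg, the dimer partner, had 3 probe sets. Its brightest probe set (1425262_at) was at 299, 306, 222, 245 and 206 in nontransgenic B cells, at 327, 325, 264, 295 and 205 in transgenic B cells and at 293, 394, 360.2, 218, 282 and 216 in MM. All 3 groups overlapped. The means were 255 ± 45.2 (SD, n = 5), 283 ± 50.9 (SD, n = 5) and 294 ± 72.7 (SD, n = 6). The other 2 probe sets ran from 172 to 246 and from 104 to 189.8 in nontransgenic, from 156 to 314 and from 109 to 200.5 in transgenic B cells, and from 153 to 203 and from 89.8 to 151 in MM. The groups overlapped on these as well.

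**Figure D1:**
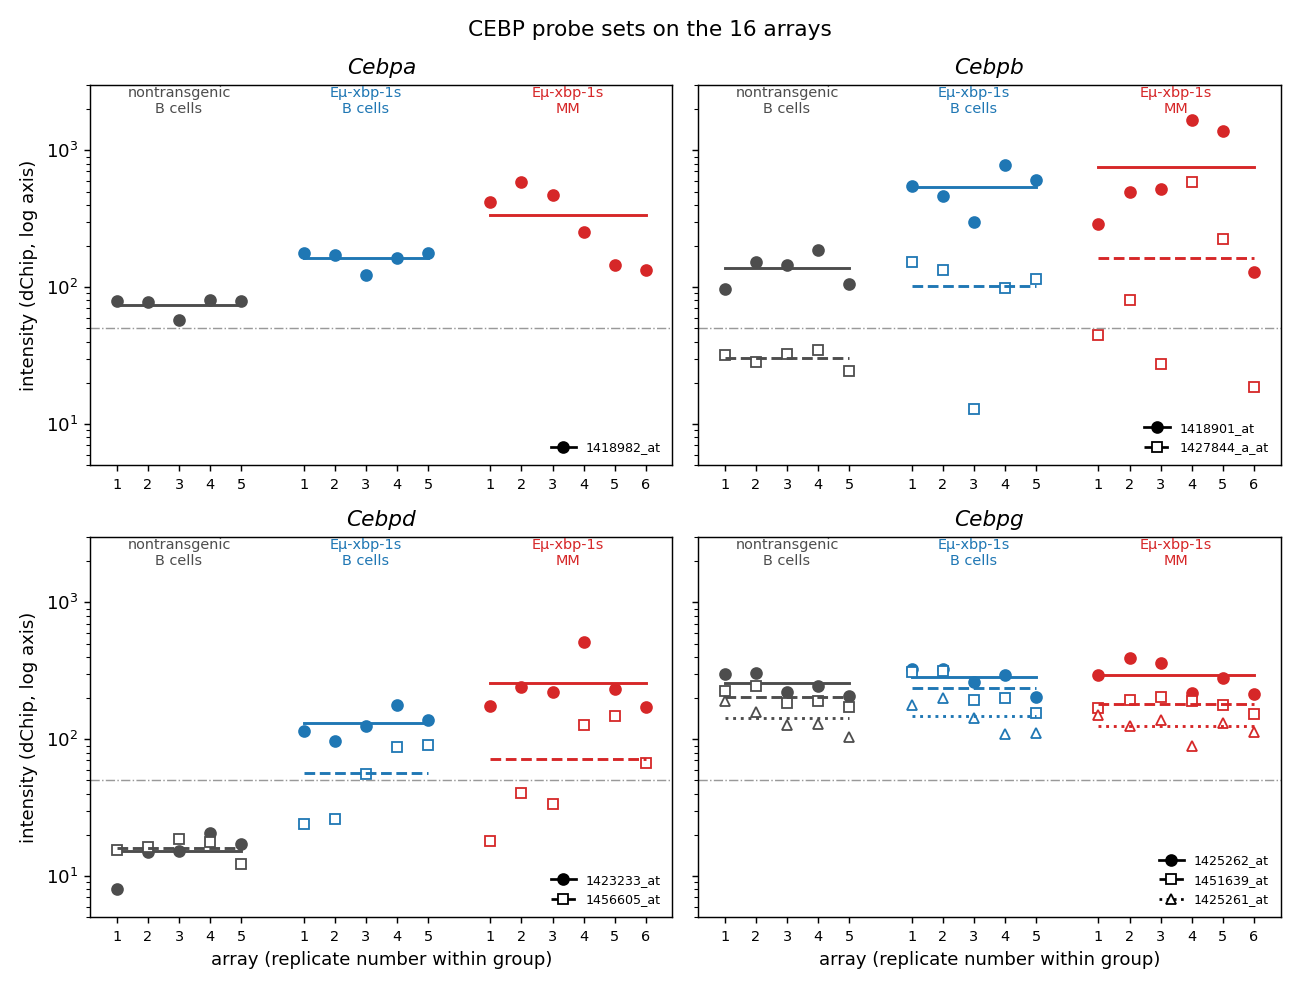
Intensity (log axis) of the 8 CEBP probe sets on each of the 16 arrays, by group and replicate number. Symbols stand for probe sets, filled for the brightest of a gene, horizontal lines are group means and the dash-dotted line is the floor of 50. Cebpa, Cebpb and Cebpd are lower in nontransgenic than in transgenic B cells, MM samples spread from 128 to 1673 on the brighter Cebpb probe set, and the 3 groups of Cebpg overlap.

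Cebpa, Cebpb and Cebpd were higher in transgenic than in nontransgenic B cells, and Cebpg did not pass the test. Cebpa rose 2.18-fold and Cebpb 3.86-fold. Cebpd rose at least 2.57-fold, a bound against the floor, since all nontransgenic arrays were beneath it. Of the 4 genes, each taken by its brightest probe set on average, 3 were thus higher and 0 lower at an adjusted p under 0.01. Over all 10436 genes tested the same rule called 3.28% higher and 0.192% lower, and the median log2 fold change was 1.24 for the 4 genes and -0.02 for all genes.

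By limma the log2 fold change was 1.13 for Cebpa (standard error 0.15, adjusted p = 0.000511), 1.95 for Cebpb (standard error 0.26, adjusted p = 0.000538) and at least 1.36 for Cebpd (standard error 0.15, adjusted p = 0.000142). All 25 pairs of 1 transgenic and 1 nontransgenic array went the same way for each of these 3 probe sets. How many of all genes separated as fully, here or between MM and nontransgenic B cells, was not counted. The dimmer Cebpb probe set had a log2 fold change of at least 1.04 (standard error 0.25, adjusted p = 0.0275, limma) and did not pass. Without transgenic B cell replicate 3 it was at least 1.30 and passed (adjusted p = 0.000152, limma). For Cebpg the estimates were 0.15 (95% interval -0.22 to 0.52, adjusted p = 0.694), 0.17 (-0.28 to 0.62, adjusted p = 0.713) and 0.05 (-0.41 to 0.52, adjusted p = 0.922) over its 3 probe sets, and the groups overlapped on each.

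Between the B cell groups, the 3 genes that rose did so beside markers of blood cells other than B cells. Summed neutrophil markers ran from 544 to 1458 in nontransgenic and from 8098 to 20101 in transgenic B cells, with 4 of 6 tested markers higher. Macrophage and monocyte markers ran from 3320.1 to 5211 and from 7391 to 14324, with 3 of 10 higher, and T cell markers from 651 to 746 and from 5024 to 6343, with 7 of 7 higher. Natural killer cell markers ran from 846 to 1133 and from 2485 to 3811, with 4 of 6 higher, and erythroid markers from 156 to 338 and from 767 to 8123, with 1 of 3 higher. The sum of mature B cell markers was 30624 to 33354 in nontransgenic and 12889 to 25735 in transgenic B cells, with 0 of 8 past the test. None of these 6 sums overlapped between the groups. The sums of eosinophil and basophil markers and of adipocyte markers did not overlap either, so this was not particular to the 6. Those of plasma cell, stromal and hepatocyte markers did overlap. With the spread drawn from all 3 groups, 0 neutrophil, 1 macrophage, 4 T cell, 0 natural killer cell and 0 erythroid markers were higher. In nontransgenic B cells the lowest values of C1qa (macrophages) and Lyz2 (macrophages and neutrophils) were 230.0 and 370.0. S100a8 (neutrophils) ran there from 33.5, under the floor of 50, to 451. The part of these cell types in the rise of the CEBP genes was not tested. In bulk RNA fewer cells of a type and less RNA per cell cannot be told apart. In a fit that drew the spread from all 3 groups the calls of Cebpa and Cebpb ended (adjusted p = 0.124 and 0.077, limma). That of Cebpb also ended without the filter on dim probe sets (adjusted p = 0.0106), and Cebpd no longer passed once values were floored at 100, with a log2 fold change of 0.37 (adjusted p = 0.167, limma).

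Between MM and transgenic B cells no CEBP gene passed the test. The mean log2 intensity of Cebpa was 0.83 higher in MM, that of Cebpd 0.90 higher, and that of Cebpb 0.05 higher, with a wide spread among the 6 MM samples. Of the 4 genes 0 were higher and 0 lower, where 1.49% of 11241 genes tested were higher and 1.67% lower (167 and 188 genes, or 147 and 364 once every array was scaled to a common median). The test had limited reach here: in simulated data with the spread of these arrays, 20% of log2 changes of 1 and 66% of log2 changes of 2 were found. Only brighter probe sets were changed there, with 1 spread shared by both groups, so these rates need not hold for the CEBP genes.

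The limma estimate for Cebpa was 0.83 (standard error 0.37, 95% interval 0.02 to 1.64, adjusted p = 0.179), with MM replicates 1, 2, 3 and 4 above every transgenic B cell array. For Cebpd it was 0.90 (standard error 0.27, adjusted p = 0.0542), with 28 of the 30 pairs of arrays higher in MM. The interval for Cebpb, -1.20 to 1.29 around 0.05 (adjusted p = 0.969), reached past 1 on the log2 scale in both directions, and 14 of 30 pairs were higher in MM. Without MM replicates 4 and 5 the Cebpb estimate was -0.71 (adjusted p = 0.323, limma). Without MM replicate 4, or 5, or without transgenic B cell replicate 3 it was -0.28, -0.23 or -0.15, and no setting that turned its sign made a call. With arrays weighted by their quality, Cebpa (1.39, adjusted p = 0.000293) and Cebpd (1.02, adjusted p = 0.00084) passed as higher in limma, and 1 dimmer Cebpg probe set (1451639_at) passed as lower (-0.63, adjusted p = 0.00863). Cebpg stood at 0.04 (95% interval -0.42 to 0.49), -0.33 (-0.77 to 0.12) and -0.23 (-0.68 to 0.23) over its probe sets, and the first of these turned to -0.06 with median scaling.

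Against nontransgenic B cells, Cebpa and Cebpd were higher in MM. Cebpa was 3.88-fold higher and Cebpd at least 4.80-fold higher, with no overlap. Cebpb was 3.99-fold higher in its mean log2 value but did not pass, and its MM replicate 6, at 128, lay within the nontransgenic range. Of the 4 genes 2 were higher and 0 lower, while 4.66% of 11079 genes tested were higher and 4.76% lower (516 and 527 genes, or 418 and 894 with median scaling, which moved the median log2 fold change of all genes from 0.01 to -0.09). These arrays of nontransgenic B cells also served in the first comparison, and the MM arrays in the second, so the 3 comparisons are not independent of each other.

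For Cebpa the log2 fold change was 1.96 (standard error 0.37, adjusted p = 0.00349, limma). This call ended without any one nontransgenic array: without replicate 1, 2, 3, 4 or 5 the adjusted p was 0.0106, 0.0105, 0.0116, 0.0102 or 0.0101. With MM replicates 4 and 5 left out, 2 of the 4 genes passed. Cebpd was higher by at least 2.26 (standard error 0.24, adjusted p = 8.5e-05, limma). Cebpb had an estimate of 2.00 (standard error 0.56, 95% interval 0.77 to 3.22, adjusted p = 0.0252, limma), and without MM replicate 6 it was 2.40 and passed (adjusted p = 0.00295). Cebpg was at 0.18 (95% interval -0.25 to 0.61), -0.16 (-0.47 to 0.15) and -0.17 (-0.58 to 0.23).

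**Figure D2:**
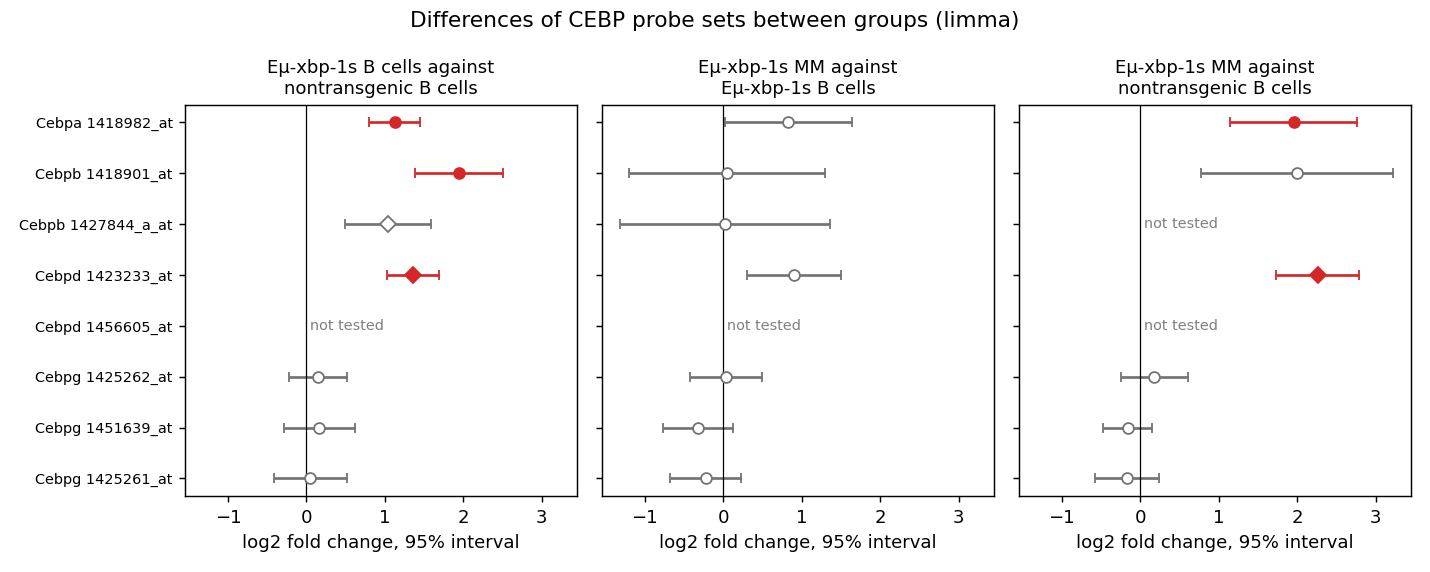
Log2 fold change of each tested CEBP probe set in the 3 comparisons, with its 95% interval from limma. Filled red symbols passed an adjusted p under 0.01, open grey ones did not, and diamonds mark lower bounds because 1 group lay wholly under the floor. Cebpa, Cebpb and Cebpd lie at 1.13, 1.95 and at least 1.36 on the left, and the intervals of Cebpg include 0 in every panel.

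In MM, Cebpa and Cebpb were not high in the same samples. Cebpa was highest on MM replicates 1, 2 and 3 (416, 586 and 473), where summed neutrophil markers were 1209, 1352 and 576 and summed macrophage markers 25424, 25695 and 24152. Cebpb was highest on replicates 4 and 5 (1673 and 1387), where neutrophil markers summed to 34402 and 29725 and those of secondary and tertiary granules, the storage granules of maturing granulocytes, to 37368 and 21218, against 486 to 778 on the other 4. Replicate 4 also had the highest macrophage sum, 38430.4, and the highest Cebpd, 510.3. Replicate 6, the lowest in Cebpa and in the brighter Cebpb probe set, had sums of 1433 for neutrophils and 10595 for macrophages. The part of these cells in the CEBP values was not tested.

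Within groups, that is with each group's mean removed, log2 Cebpa correlated with the summed macrophage markers at r = 0.70 and with the neutrophil markers at r = -0.51 over the 16 arrays. For Cebpb the same values were 0.47 and 0.74, for Cebpd 0.51 and 0.62 and for Cebpg 0.10 and -0.53. T cell markers gave 0.95 with Cebpa and -0.14, -0.17 and 0.63 with Cebpb, Cebpd and Cebpg. High values were thus not particular to macrophages or neutrophils. Natural killer cell, stromal and mature B cell markers gave 0.91, 0.72 and 0.67 with Cebpa, and erythroid markers -0.53. With Cebpb, eosinophil and basophil markers gave 0.73, erythroid markers 0.66 and mature B cell markers -0.65. Among the CEBP genes themselves, Cebpb and Cebpd correlated at 0.73 and Cebpa and Cebpg, the chromosomal neighbours, at 0.59, while Cebpa was at 0.04 with Cebpb and at 0.01 with Cebpd. These correlations were computed over all 16 arrays only. Arrays of a group share their handling, MM samples set most of this spread, and these values are a description without a test.

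Other cell types known to use CEBP factors were looked at in the same way. Stromal markers summed to 327 to 505 and 350.3 to 489.6 in the B cell groups and to 4954 to 12480.2 in MM, where 6 of 8 tested markers were higher than in transgenic B cells. Adipocyte markers summed to 82.2 to 116 in nontransgenic B cells, 172 to 328 in transgenic B cells and 689 to 1814 in MM. Fabp4, a fatty acid carrier of fat cells and macrophages (471 to 1334 in MM), gave most of the MM sum. It and Lpl, a lipase of the same cells, were higher in MM than in either B cell group (2 of 2 tested). Against transgenic B cells the Lpl call ended without any single transgenic array (adjusted p = 0.0110 to 0.0287, limma). It also ended without MM replicate 1, 2, 3, 4 or 6 (0.0132 to 0.0228), with a floor of 100 (0.0124), no filter (0.0349) or the replicate block (0.0581). Adipoq, a fat cell hormone, was at 60.2, 99.8 and 190.5 on MM replicates 2, 3 and 6 and at 15.2 or less in B cells, and Pparg, the adipocyte regulator that CEBP factors induce, was at 2.03 to 22.3 in MM. Hepatocyte markers were low everywhere, with sums of 233 to 464. Eosinophil and basophil markers summed to 159 to 258 in nontransgenic B cells, 285 to 434 in transgenic B cells, 981 and 648 on MM replicates 4 and 5 and 127 to 184 on the other 4. Whether such cells had a part in the CEBP levels was not tested.

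**Figure D3:**
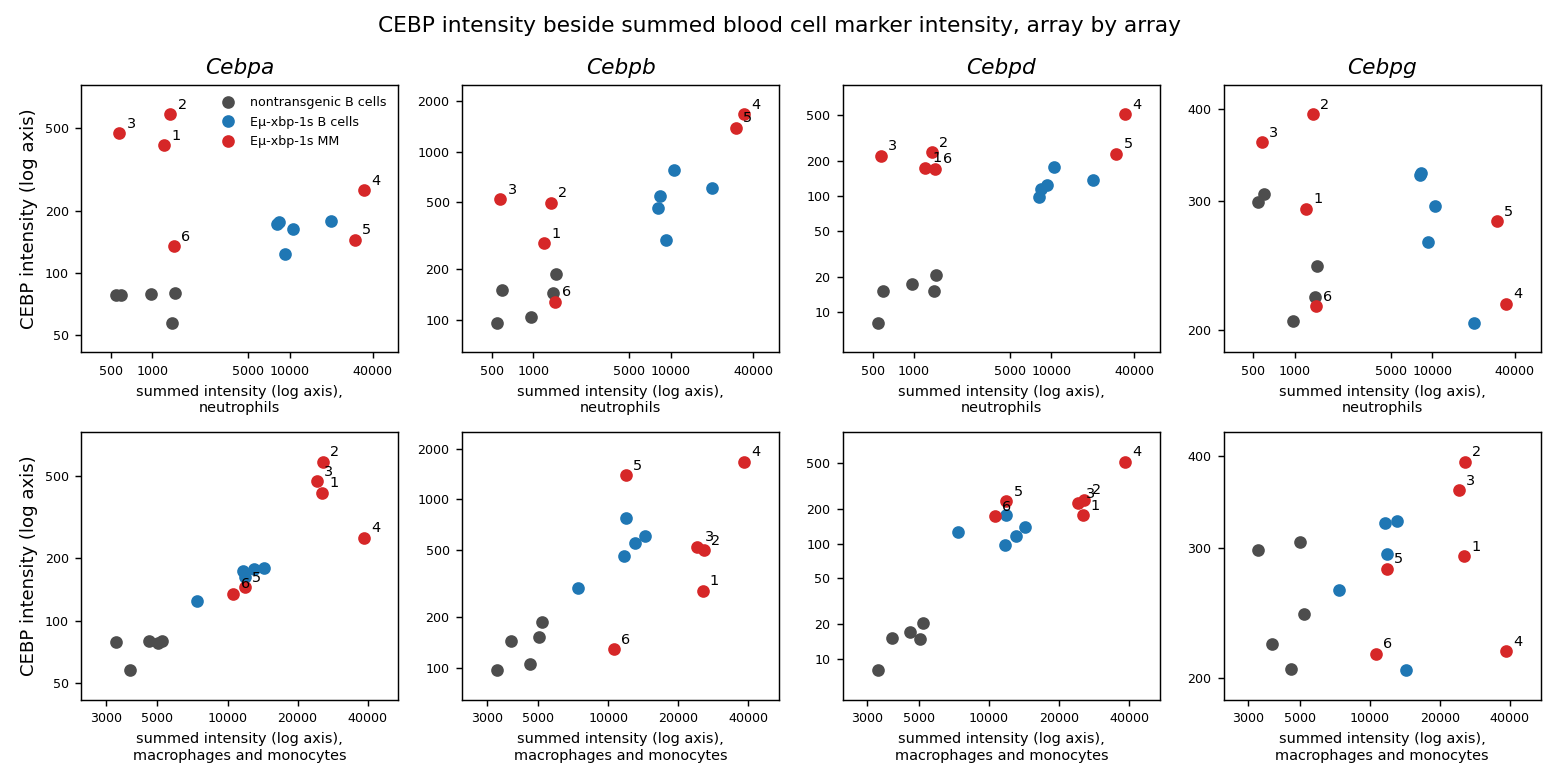
Intensity of the brightest probe set of each CEBP gene (log axis) against the summed intensity of neutrophil markers (top) and of macrophage and monocyte markers (bottom), 1 point per array, with MM replicate numbers printed. Cebpa is highest on MM replicates 1 to 3, which have low neutrophil and high macrophage sums, and Cebpb is highest on MM replicates 4 and 5, which have the highest neutrophil sums (34402 and 29725).

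IL-6 acts through a receptor of paired chains, IL-6R (Il6ra) and gp130 (Il6st), which switch on the kinases JAK1, JAK2 and TYK2 and the factor STAT3, itself an inducer of Cebpb and Cebpd in liver and myeloid cells. Both receptor chains rose in transgenic B cells, and they were 2 of the 9 genes of this axis that could be tested, with 0 lower. Il6ra went from 48.4 to 83.4 in nontransgenic to 194 to 296 in transgenic B cells, a log2 fold change of 1.94 (adjusted p = 1.19e-05, limma), and Il6st from 74.0 to 143 to 332 to 469, one of 2.05 (adjusted p = 3.9e-05). The kinases and STAT3 did not pass, and Socs3, the feedback inhibitor that STAT3 induces, had means of 328 ± 163 and 698 ± 228 (SD, n = 5 each, adjusted p = 0.0909, limma). The median of the 9 genes was 0.36.

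In MM the receptor chains parted. Il6ra was at 101, 103, 166, 69.9, 67.6 and 64.3, below every transgenic B cell array (log2 fold change -1.47, adjusted p = 0.00417, limma), and it was the 1 gene of the 9 that was lower, with 0 higher. This call ended without MM replicates 4 and 5 (adjusted p = 0.0153, limma), without MM replicate 4 alone (0.0103), without transgenic B cell replicate 1, 2, 3 or 4 (0.0114 to 0.0159), with no filter (0.0175) and as a mean of probe sets, at -0.84 (0.0166). Il6st was at 404, 533, 597, 562, 341 and 89.9 in MM and was higher than in nontransgenic B cells (1.89, adjusted p = 0.00976, limma), the 1 gene of 9 that passed there. The latter call ended without any single array other than MM replicate 6 (adjusted p = 0.0157 to 0.0288, limma) and under floors of 16 and 100, no filter, median scaling and means of probe sets (0.0105 to 0.0449), as well as without MM replicates 4 and 5 (0.0337). Il6 was under the floor on all B cell arrays and 4 of the 6 MM arrays and was at 132 and 260.4 on MM replicates 4 and 5, so it was not tested.

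Of the partners and regulators of CEBP proteins, 1 passed the test in 1 of the 3 comparisons. The list held the leucine zipper genes Ddit3 (CHOP, a CEBP relative that blocks DNA binding by its partners), Atf3, Atf4, Atf5, Nfil3, Dbp, Hlf and Tef and the pseudokinases Trib1 and Trib2, which mark CEBPA protein for degradation. None of 8 tested genes was higher or lower in transgenic against nontransgenic B cells, and none of 9 in MM against transgenic B cells. Ddit3 was at 200.4 ± 26.4, 237 ± 48.7 and 282 ± 291 (SD) in the 3 groups, with MM replicate 5 at 845. Atf5 was higher in MM than in nontransgenic B cells (1.14, adjusted p = 0.00844, limma), from 50.9 to 86.4 to 73.3 to 202 with replicate 6 the lowest, and this call ended without any single nontransgenic array (adjusted p = 0.0140 to 0.0261) and without MM replicate 1, 2, 3, 4 or 5 (0.0133 to 0.0188). It also ended without MM replicates 4 and 5 (0.0302), with quantile normalization (0.0124), median scaling (0.0115) or no filter (0.0316), and with a floor of 100, at 0.65 (0.0141). Nfil3, a repressor of the leucine zipper class, was at 96.0, 231, 307, 309, 133 and 22.1 in MM and at 33.7 to 59.4 in transgenic B cells, and only MM replicate 6 was not above them all (log2 fold change 1.58, adjusted p = 0.0335, limma). Against nontransgenic B cells its estimate was 1.63 (adjusted p = 0.0161). Trib2 was at 314, 468.5, 489, 193, 107 and 129.9 in MM and 364 to 896 in transgenic B cells, an estimate of -1.25 that did not pass (adjusted p = 0.0824, limma). Atf4, the brightest of the list, did not pass in any comparison.

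Genes that CEBP factors activate in granulocytes and macrophages were followed as a list of 12, of which 4 are also in the marker lists above. In transgenic against nontransgenic B cells 3 of 8 tested genes were higher and 0 lower, with a median of 1.01: Lyz2 (lysozyme, 2.62, adjusted p = 6.04e-05), Csf1r (the receptor of macrophage growth factor, 1.45, adjusted p = 0.000335) and Cd14 (a receptor for bacterial endotoxin, 1.13, adjusted p = 0.00554), all by limma. None of 12 passed between MM and transgenic B cells (median 0.39). Against nontransgenic B cells, Lyz2 (3.49, adjusted p = 0.00012, limma) and Csf2ra, a chain of the granulocyte-macrophage growth factor receptor (1.25, adjusted p = 0.00281), were higher in MM, 2 of 8 tested. Lyz2 had its highest MM values on replicates 1 and 2 (9522 and 8947), and Mpo, an early granulocyte enzyme, its highest on replicates 4 and 5 (5903 and 3049, against 159.7 to 312 on the other 4). Cd14 did not pass without transgenic B cell replicate 5 or without nontransgenic replicate 1, 2, 4 or 5 (adjusted p = 0.0141 to 0.0200, limma), nor did Csf2ra in MM without nontransgenic replicate 5 (0.0104). With no filter neither passed (0.0364 and 0.0123). With the spread drawn from all 3 groups, Csf1r (0.0357) and Cd14 (0.673) did not pass between the B cell groups.

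The storage granule genes that need CEBPE were split among the MM samples. Cebpe itself was not analysed here, so whether these genes followed its level was not tested. Of the 6, 4 were higher in transgenic than in nontransgenic B cells and 0 lower (median 2.58): Camp (cathelicidin, at least 3.49, adjusted p = 0.00196), Mmp8 (a neutrophil collagenase, at least 2.70, adjusted p = 6.04e-05), Lcn2 (lipocalin 2, 2.70, adjusted p = 0.00565) and Ngp (neutrophilic granule protein, 2.37, adjusted p = 0.00608), by limma. Camp was at 32.0 to 39.5 in nontransgenic and at 299.5, 272, 352, 609 and 3167 in transgenic B cells, so that replicate 5 stood far above the other 4 transgenic arrays. In MM it was at 7565 and 4649 on replicates 4 and 5 and at 25.01 to 52.6 on the rest. None of 6 passed between MM and transgenic B cells and none of 3 between MM and nontransgenic B cells. The calls of Lcn2 and Ngp ended without any single nontransgenic array or without transgenic B cell replicate 4, and that of Ngp also without replicate 1 (adjusted p = 0.01001 to 0.0201, limma), and 2 of the 6 are also neutrophil markers. With the spread drawn from all 3 groups none of these genes passed between the B cell groups (adjusted p = 0.261 for Camp, 0.209 for Mmp8, 0.333 for Lcn2 and 0.381 for Ngp), and Camp, Lcn2 and Ngp did not pass with no filter (0.0300 to 0.0568), nor Camp and Lcn2 with a floor of 100 (0.0244 and 0.0327) or Lcn2 with a pseudocount of 50 (0.0148).

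Acute phase and inflammatory genes, the classical targets of CEBPB and CEBPD, were mostly too dim to test, with 3 of 8 tested between the B cell groups. Hp, the plasma haemoglobin carrier haptoglobin, was the 1 that was higher there, from 16.7 to 37.3 in nontransgenic to 211 to 338 in transgenic B cells (log2 fold change at least 2.49, adjusted p = 3.39e-07, limma). That call ended with the spread drawn from all 3 groups (adjusted p = 0.0427, limma). Il1b, an inflammatory cytokine, was at 0.74 (adjusted p = 0.0121, limma). In MM none of 5 passed against transgenic B cells. Saa3, an acute phase apolipoprotein of macrophages, was higher than in nontransgenic B cells by at least 2.30 (adjusted p = 0.00679, limma), at 652 and 693 on replicates 2 and 6 and 88.8 to 250.4 on the other 4. Its call was the 1 of 5 there, and it ended without any single nontransgenic array or without MM replicate 2, 3 or 4 (adjusted p = 0.0102 to 0.0193, limma), with no filter (0.0351), with the replicate block (0.0121) and with a floor of 100, at 1.33 (0.0844).

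**Figure D4:**
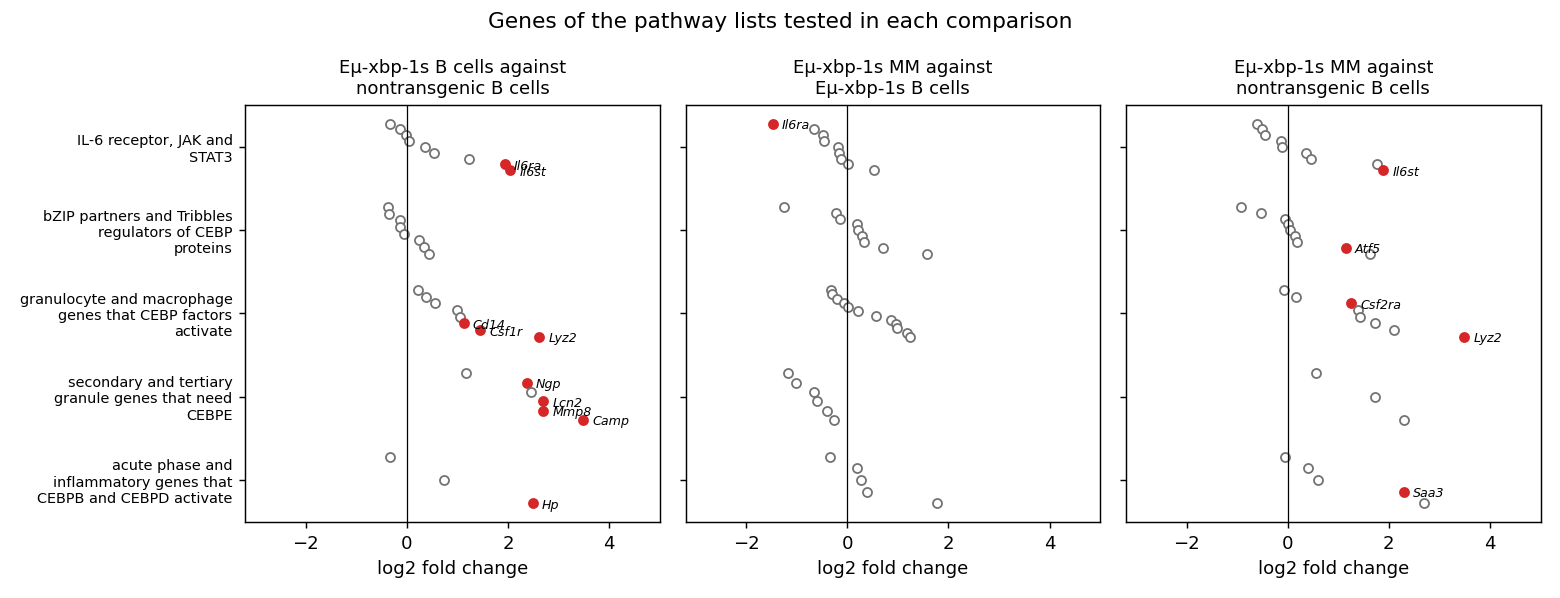
Log2 fold change of each tested gene of the 5 pathway lists in the 3 comparisons (limma). Filled red points with a gene name passed an adjusted p under 0.01, and open grey points did not. The granule genes pass in transgenic against nontransgenic B cells (4 of 6), and Il6ra is the 1 listed gene that is lower in MM than in transgenic B cells.

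The genes whose log2 profile over the 16 arrays was most like that of each CEBP gene were sought among 11064 genes. For Cebpa they were Timp2 (r = 0.96), Cpq (0.95), Sirpa, a receptor of macrophages (0.94), Serpinb9 (0.94) and Rcn1 (0.94). For Cebpb they were Pygl, liver-type glycogen phosphorylase (0.95), Chil3, a secreted product of mouse macrophages and neutrophils (0.95), Gsr (0.95), Ptpn12 (0.95) and Fcer1g, the signalling chain of Fc receptors (0.94). Cebpd was nearest to Lgals3, galectin 3 (0.98), Ctbp2 (0.96), Bmpr2 (0.96), Jdp2, a leucine zipper factor (0.96), and Fcgr3, a low-affinity Fc receptor (0.96), and Cebpg to Wbp4 (0.88), Bnip2 (0.88), Trim37 (0.87), Rnps1 (0.87) and Vstm2l (0.86). With group means removed, the nearest of Cebpa were Bst2 (0.98) and Irf7 (0.97), both induced by interferon, those of Cebpb Stxbp5 (0.96) and Dusp16 (0.96), those of Cebpd Metrnl (0.92) and Ecm1 (0.89), and those of Cebpg Hnrnpa2b1 (0.94) and Trim37 (0.94). No gene but Trim37 was among the nearest 5 by both measures, and none was shared by 2 CEBP genes.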

How the data were processed

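RNA of 16 samples was measured on Affymetrix mouse arrays. The authors scanned them with MAS 5.0 and, in dChip, normalized every array to one of median brightness and took model-based perfect match minus mismatch values. The deposited values are intensities, 1 per probe set and array. No other normalization was applied. The annotation gave 1 gene for 34958 probe sets, several for 932 and was without an entry for 9211, which stayed unnamed, and 64 controls left 45037 for testing. A floor of 50 was applied, a probe set was kept if over 20% of the arrays in a comparison exceeded 100, and log2 values were tested with limma 3.58.1 (R 4.3.3; lmFit, eBayes, each pair of groups alone), Benjamini-Hochberg adjusted over all, at 0.01. The study used SAM. Plots came from matplotlib 3.10.9 and tables from numpy 2.4.6 and pandas 2.3.3 in Python 3.11.15.

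The members, lists and tests were chosen with earlier results of these data known. Named were all CEBP probe sets, up to 4 genes of a list past the test with the largest changes in a comparison or else its brightest gene, and the 5 genes most like each CEBP gene. Other listed genes were picked after their values were seen. On simulated data 200 of the brighter probe sets were changed. In the 3 comparisons, in the order of the report, the test recovered 57%, 20% and 28% of changes of 1 in log2. Of changes of 2 it recovered 89%, 66% and 82%, with 3, 0 and 3 false calls. The labels give replicate numbers in every group. Arrays of the B cell groups with the same number deviated together (r = 0.50, 0.52, 0.21, 0.17 and 0.50), though only 1 of the 5 pairs correlated best with its own number and no source says what a number marks. The tests of the report used no pairing. B cell numbers were treated as possible pairs, because all 5 values exceeded 0.1, only in the replicate block. MM numbers were not taken as pairs (-0.27 to 0.45), though the block was run on those comparisons as well. Alternatives were other floors, a pseudocount, filters, scalings, tests, thresholds, array weights, a replicate block, a single fit, means of probe sets and samples left out. The number of arrays limits the precision.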

Additional observations from a re-analysis of the deposited data

Results flagged for a closer look

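Within the 24 sets of values formed by 8 probe sets and 3 groups, 3 had a value far from its group, where chance marks about 1 in 20. Cebpa was at 57.4 on nontransgenic replicate 3, and the next lowest array was at 78.1, a gap of 0.915 of the group's range. The dimmer Cebpb probe set (1427844_a_at) was at 585 on MM replicate 4, against 225 on the next highest (0.637 of the range). Cebpd (1423233_at) was at 510.3 on the same MM sample, against 239 on the next (0.803 of the range). Leaving out nontransgenic replicate 3 gave a log2 fold change of 1.03 for Cebpa in transgenic against nontransgenic B cells, which passed the test, and 1.86 in MM against nontransgenic B cells, which did not (adjusted p = 0.0116, limma).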

How the results depend on the processing

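The counts of CEBP genes were 3 higher in transgenic against nontransgenic B cells, 0 in MM against transgenic B cells, 2 in MM against nontransgenic B cells, and 0 were lower under every alternative run, with each gene taken by its brightest probe set. The dimmer Cebpg probe set 1451639_at was called lower in the second with array weights (-0.63). Fitting all 3 groups together left 1 higher in the first, array weights gave 2 in the second, and a floor of 100 or no filter left 1 in the third. Leaving out 1 array gave 1 to 3 in the third. With a replicate block the third gave 3 (Cebpb 2.40, adjusted p = 0.0038, limma, without the unpaired MM replicate 6), and the block changed no other CEBP call. MM numbers share no origin in the sources used here. Cebpb (1418901_at) passed in the third under 6 of 26 alternatives. Among them was an adjusted p under 0.05 with all samples kept (adjusted p = 0.0252, limma).

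Against transgenic B cells, Cebpb (1418901_at) in MM turned from 0.047 to -0.045 with median scaling, -0.15 with array weights and -0.71 without MM replicates 4 and 5, and ran from -0.28 to 0.46 with 1 array left out. The dimmer Cebpb probe set turned from 0.025 to -0.050 with a floor of 16, -0.84 with array weights and -0.87 without MM replicates 4 and 5 (-0.47 to 0.24 with 1 array left out). Cebpg (1425262_at) turned from 0.036 to -0.057 with median scaling and -0.17 as a mean of probe sets (-0.076 to 0.12 with 1 array left out), and in MM against nontransgenic B cells from 0.18 to -0.050 as such a mean. Cebpg (1425261_at) ran from -0.066 to 0.165 between the B cell groups with 1 array left out and turned from -0.17 to 0.031 with array weights in MM against nontransgenic B cells. None of these passed the test, and the cause was not tested.

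Over all genes the alternatives called 115 to 746 higher and 5 to 174 lower in the first comparison (342 and 20 in the report, 391 and 42 with the replicate block), 64 to 1184 and 57 to 1164 in the second (167 and 188), and 249 to 1662 and 248 to 1300 in the third (516 and 527). The alternatives for listed genes were added after the data were seen.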
